A study of Mus musculus with 35 samples.

Results

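The clustered protocadherins are cell-surface adhesion proteins encoded in 3 neighbouring gene clusters on mouse chromosome 18, named alpha, beta and gamma (Pcdha, Pcdhb and Pcdhg). Rows of the count table were taken as members where the symbol followed the naming pattern of these clusters and the row lay on chromosome 18, which gave 24 of 39109 rows. They comprised 22 rows for Pcdhb1 to Pcdhb22, 1 row for the alpha cluster, listed as Pcdha2, and 1 row for the gamma cluster, listed as Pcdhga9. The rule itself used names and position.

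Each clustered protocadherin is made from its own promoter, and single neurons switch on only a few of them, so that the combination on the surface helps a neuron to tell its own branches from those of its neighbours. In the alpha and gamma clusters each variable first exon is spliced to shared constant exons, whereas the beta genes are single exons with no constant part. Promoter choice is known to depend on CTCF, cohesin and DNA methylation.

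RNA was sequenced from the striatum of 35 mice aged 21.71 to 23 weeks, in 4 genotype groups. Mice were wild-type for huntingtin (Htt+/+) or carried 1 knock-in allele with an expanded CAG repeat (HttQ111/+), the mutation of Huntington's disease. Hdac2 KO mice carried floxed alleles of the histone deacetylase gene Hdac2 and the D9-Cre transgene, which uses Ppp1r1b regulatory sequence to express Cre in adult medium-spiny neurons, abbreviated MSNs, the most numerous neurons of the striatum. Hdac2 WT mice had floxed alleles but no Cre (2 Htt+/+ mice of the A series had only 1 floxed allele), so Cre and the deletion cannot be told apart. The floxed line began on a C57BL/6/129SeEv mixed background and was later bred to C57BL/6J. There were 8 Htt+/+ Hdac2 WT, 7 HttQ111/+ Hdac2 WT, 9 Htt+/+ Hdac2 KO and 11 HttQ111/+ Hdac2 KO libraries. Males and females numbered 5 and 3, 4 and 3, 5 and 4, and 8 and 3 in that order. Inherited repeat length formed 2 classes: 8 carriers had long repeats (131 to 144), all with mouse IDs beginning with V, and 10 had short repeats (110 to 118), all with IDs beginning with A or Z. Library totals ran from 50339179 to 76939791 counted reads.

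Levels are given in CPM, the usual read count scaled to library size, with trimmed-mean (TMM) scaling. Fold changes come from edgeR's quasi-likelihood test with surrogate variables, which are covariates estimated from the data itself, and adjusted p-values are Benjamini-Hochberg values over all genes tested. In whole striatum, fewer cells of a type and less RNA per cell cannot be told apart. The count of the whole Hdac2 gene covers exons outside the deleted part and cells other than MSNs, so it is a weak check of the deletion. In Htt+/+ mice its level was 102.5 ± 3.42 CPM in the 8 WT libraries, and 94.4 ± 2.98 CPM in the 9 KO libraries (mean ± SD, adjusted p = 0.0552 by edgeR). In HttQ111/+ mice the log2 fold change was -0.12 ± 0.03 (SE, adjusted p = 0.00198). Hdac1, the closest relative of Hdac2, ran from 5.33 to 6.82 CPM and from 8.37 to 9.84 CPM in the Htt+/+ WT and KO libraries, a log2 fold change of 0.54 ± 0.07 (SE, adjusted p = 7.35e-07 by edgeR). 3 libraries held over 100 CPM of the cortical gene Slc17a7, the highest with 345.8 CPM.

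The 3 clusters lie in the order alpha, beta, gamma, all on the plus strand. The GENCODE annotation of the same build (GRCm38) lists 14 alpha, 22 beta and 22 gamma genes there. The alpha row spans 257.4 kb and the gamma row 167.5 kb, so each sums many promoters and no single alpha or gamma gene could be read from it. Each Pcdhb row has its own interval of 2.34 to 7.13 kb, and no other row of the table overlaps it. Pcdhb17, for example, lies at chr18:37485021-37488289 and Pcdhb20 at chr18:37504264-37507658 (GRCm38). The Pcdhb genes resemble each other in sequence and only uniquely aligned reads were counted, so reads from their most alike stretches are missing, and a level compared between genes is uncertain to that extent.

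Per kilobase of its interval, Pcdhb17 was the highest beta gene in Htt+/+ Hdac2 WT striata at 6.88 ± 0.517 CPM per kb (SD, n = 8). Pcdhb20 followed with 6.24 ± 0.617 CPM per kb, and the ranges of mean ± SD of both genes overlapped. Pcdhb1 was the lowest at 0.237 ± 0.125 CPM per kb, with 9 to 63 reads per library in this group. The 22 beta genes summed to 231.0 ± 20.5 CPM (SD, n = 8), which was 16.3% to 20.8% of the reads of the 3 clusters. The gamma row held 824.3 ± 34.6 CPM and the alpha row 127.1 ± 8.00 CPM. Most reads of the clusters were thus in the gamma row.

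Most beta genes were higher with Hdac2 KO in Htt+/+ mice, while the alpha and gamma rows showed no call. Extraction dates also differed between most WT and KO mice, as set out below. 17 of the 22 Pcdhb genes were higher in Htt+/+ Hdac2 KO than in Htt+/+ Hdac2 WT at an adjusted p under 0.05, against 9.06% of all genes tested. All 22 fitted estimates were above 0, with a median of 0.44 on the log2 scale, whereas the median over 17126 genes was -0.00. This held with the surrogate variables in the fit. Before that adjustment, mean levels were lower in KO for Pcdhb6 (10.4 CPM in WT and 9.11 CPM in KO) and Pcdhb8 (7.32 and 6.77 CPM). The alpha row ran from 114.5 to 135.5 CPM (median 128.7) in WT and from 109.7 to 133.3 CPM (median 118.0) in KO, which overlapped, with a log2 fold change of 0.00 ± 0.04 (SE, adjusted p = 0.987) and the gamma row -0.04 ± 0.03 (SE, adjusted p = 0.363).

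**Figure D1:**
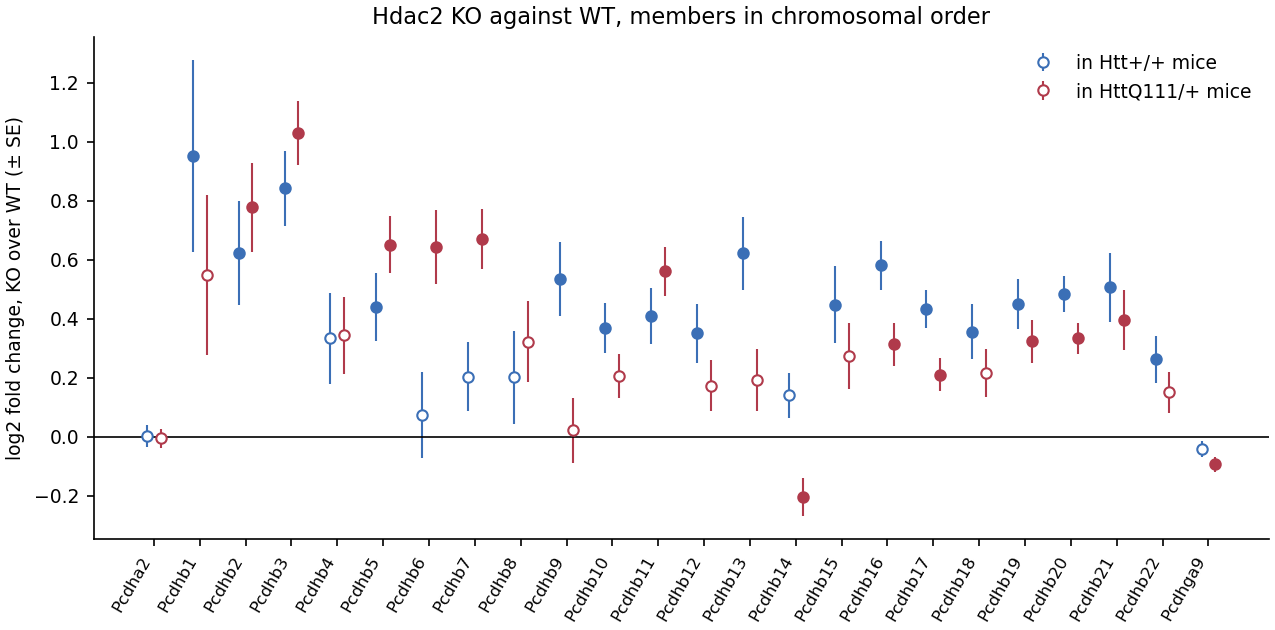
Log2 fold change of Hdac2 KO over WT (vertical axis) for the 24 rows in chromosomal order, in Htt+/+ mice (blue) and HttQ111/+ mice (red). Bars are SE from edgeR, filled points have an adjusted p under 0.05, and each contrast was fitted separately over all 35 libraries; 17 beta genes are filled above 0 in Htt+/+ and 11 in HttQ111/+, while Pcdhga9 and Pcdhb14 are filled below 0 in HttQ111/+.

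Pcdhb20 ran from 18.4 to 24.2 CPM with a median of 20.9 in the 8 Htt+/+ Hdac2 WT libraries, and from 25.5 to 30.8 CPM with a median of 27.0 in the 9 Htt+/+ Hdac2 KO libraries. Every KO library was above every WT library. The log2 fold change was 0.48 ± 0.06 (SE, adjusted p = 1.1e-06 by edgeR).

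Pcdhb17 ran from 19.3 to 24.3 CPM (median 22.7) in WT and from 26.9 to 32.1 CPM (median 28.9) in KO, again with no overlap. Its log2 fold change was 0.43 ± 0.06 (SE, adjusted p = 9.67e-06). Pcdhb16 ran from 12.6 to 17.7 CPM (median 16.3) and from 18.1 to 25.8 CPM (median 21.0), with a log2 fold change of 0.58 ± 0.08 (SE, adjusted p = 5.62e-06). These were the 3 beta genes, of 22, whose KO libraries all lay above the WT libraries. Of all genes, 2.38% did so.

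Pcdhb3 had the largest fitted change among the well-counted genes, a log2 fold change of 0.84 ± 0.13 (SE, adjusted p = 1.28e-05). Its group means, taken without the surrogate variables, were 7.04 CPM in WT and 9.56 CPM in KO, a smaller rise than the fitted one. Its WT libraries ran from 3.78 to 9.48 CPM (median 7.56) and its KO libraries from 7.97 to 12.8 CPM (median 9.13). The groups overlapped, although every KO library was above the WT median. Pcdhb13 rose by 0.62 ± 0.12 and Pcdhb19 by 0.45 ± 0.08 on the log2 scale (adjusted p = 0.00049 and 0.000248).

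The lowest gene, Pcdhb1, had a fitted log2 fold change of 0.95 ± 0.33 (adjusted p = 0.0406), but its group means were 0.582 and 0.601 CPM. Without surrogate variables its log2 fold change was 0.04 (adjusted p = 0.943). Pcdhb4, Pcdhb6, Pcdhb7, Pcdhb8 and Pcdhb14 were the 5 beta genes without a call, with log2 fold changes from 0.07 to 0.33.

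**Figure D2:**
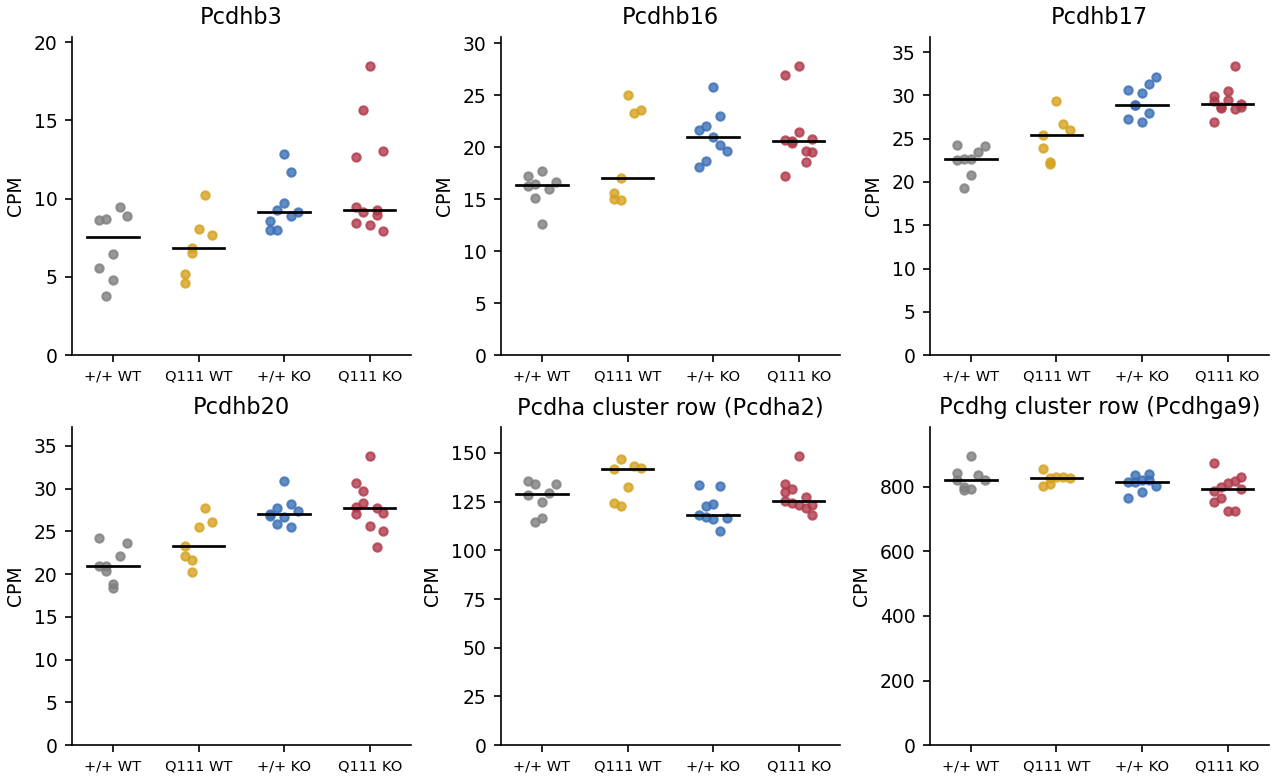
CPM (vertical axes, from 0) in each library of the 4 genotype groups for 4 beta genes and the alpha and gamma rows, with the group median as a bar. Pcdhb17 and Pcdhb20 lie higher in every Htt+/+ KO library than in any Htt+/+ WT library, whereas the alpha and gamma rows overlap in all groups.

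In HttQ111/+ mice 11 of the 22 beta genes were higher with Hdac2 KO, against 7.68% of all genes tested, and 1 was lower, against 8.86%. The median log2 fold change of the beta genes was 0.32, and 21 of 22 were above 0. The alpha row had a log2 fold change of -0.01 ± 0.03 (SE, adjusted p = 0.942).

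Pcdhb3 again had the largest fitted change. Its highest HttQ111/+ Hdac2 WT library had 10.2 CPM (median 6.85) and the HttQ111/+ Hdac2 KO libraries ran from 7.92 to 18.5 CPM (median 9.30). The groups overlapped, although every KO library was above the WT median. The log2 fold change was 1.03 ± 0.11 (SE, adjusted p = 4.46e-08).

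Pcdhb11, Pcdhb5 and Pcdhb7 rose by 0.56 ± 0.08, 0.65 ± 0.10 and 0.67 ± 0.10 on the log2 scale (adjusted p = 1.12e-05, 1.5e-05 and 1.79e-05). Pcdhb20 rose by 0.33 ± 0.05 and Pcdhb2 by 0.78 ± 0.15 (adjusted p = 3.12e-05 and 0.000415). For each of these genes the group means differed by less than the fitted change. In WT and KO they were 13.6 and 18.3 CPM for Pcdhb7, and 3.01 and 4.08 CPM for Pcdhb2. Pcdhb14 was the beta gene that fell, by 0.20 on the log2 scale (SE 0.07, adjusted p = 0.0298). Its groups ran from 11.7 to 18.9 CPM in WT and from 11.6 to 21.0 CPM in KO, so they overlapped. The gamma row had a log2 fold change of -0.09 ± 0.03 (adjusted p = 0.00949) and ran from 801.0 to 853.5 CPM in WT and from 724.3 to 872.3 CPM in KO.

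No beta gene had all HttQ111/+ KO libraries above all HttQ111/+ WT libraries, where 0.824% of all genes did. The counts depended on the covariates. No share of all genes is given for the Hdac2 counts with other covariates, so they do not set the beta genes apart from all genes. With no covariates 12 beta genes were higher in Htt+/+ and 6 in HttQ111/+, and the falls of Pcdhb14 and of the gamma row were not called (adjusted p = 0.285 and 0.185). Averaged over both Htt backgrounds, 20 of 22 beta genes were higher in KO, against 12.9% of all genes. HttQ111/+ Hdac2 KO against Htt+/+ Hdac2 WT gave 18 of 22 higher, against 10.2%; this contrast shares its libraries with those above.

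RNA extraction date nearly followed Hdac2 genotype, and few dates held both, so KO and date can hardly be told apart. With date in place of the surrogate variables, 7 beta genes were higher in KO in Htt+/+ and 0 in HttQ111/+. Both comparisons within a date were between mice of different ID series. On 1 date, day 27, 1 Htt+/+ KO library (a Z mouse) was extracted beside 3 Htt+/+ WT libraries (V mice), and its summed beta level of 280.1 CPM was above their 227.4 to 255.2 CPM. It exceeded all 3 of those WT libraries for 12 of the 22 genes. On day 25, 1 HttQ111/+ KO library at 341.0 CPM, an A mouse with 118 repeats, was above 2 WT libraries at 216.4 and 296.2 CPM. It exceeded both for 15 genes. The 2 WT libraries were a Z mouse with 113 repeats, the library with the highest Slc17a7, and a V mouse with 131 repeats. The KO library was the largest of all by reads, and the other short-repeat KO libraries ran from 256.3 to 294.8 CPM. No share of all genes was taken for the counts of 12 and 15, so nothing is drawn from them.

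Within ID series, 20, 18 and 21 of 22 beta genes were higher on average in KO among Htt+/+ mice of the A, V and Z series. Their median log2 differences were 0.26, 0.32 and 0.52. In HttQ111/+ mice the counts were 22, 10 and 19, and the median in V mice was -0.01. These differences rest on 1 to 5 mice a side. No share of all genes was taken for these counts, and many beta genes varied together between libraries, so nothing is drawn from the counts.

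The Q111 allele itself moved few beta genes across the threshold in the 4-group fit. With Hdac2 WT, edgeR called 0 of 22 (DESeq2 called 1), and 10 had an unadjusted p under 0.05, of which 8 were higher and 2, Pcdhb6 and Pcdhb7, lower. Of all genes, 0.403% were called and 10.9% had an unadjusted p under 0.05. With Hdac2 KO, edgeR and DESeq2 called 0 of 22, and 3 had an unadjusted p under 0.05, against 0.00584% and 7.52% of all genes. With sex and ID series in place of the surrogate variables, 6 beta genes were higher in HttQ111/+ with Hdac2 WT. No share of all genes is given for that fit, so its count does not set the beta genes apart from all genes.

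The test of the difference between the 2 Hdac2 effects called no beta gene in edgeR, against 0.00577% of all genes. 8 of 22 had an unadjusted p under 0.05, against 5.63%. Of these, the estimated KO effect of Pcdhb6 and Pcdhb7 was larger in HttQ111/+ (interaction 0.57 ± 0.17 and 0.47 ± 0.14 on the log2 scale, both adjusted p = 0.549), and that of Pcdhb9, Pcdhb13, Pcdhb14, Pcdhb16, Pcdhb17 and Pcdhb20 was larger in Htt+/+.

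Levels of the beta genes varied between libraries of 1 genotype in sets of genes, picked here after the values were seen. After group means were removed, log2 CPM of Pcdhb2 to Pcdhb7 had correlations of 0.643 to 0.873 in 15 pairs over 35 libraries, against a median of 0.38 over all 231 beta pairs. Pcdhb9, Pcdhb12, Pcdhb13 and Pcdhb14 formed another set, with 0.347 to 0.627 in 6 pairs. Pcdhb7 and Pcdhb9 ran against each other at -0.656. These libraries share series, depth and scaling, so the values are descriptions.

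The ratio of Pcdhb7 to Pcdhb9 split the libraries. It was 1.18 to 2.11 in 12 of the 16 V mice and 0.588 to 0.652 in the other 4, while the 19 A and Z mice ran from 0.651 to 0.905. All 5 V mice of the Htt+/+ Hdac2 WT group were on the high side, as were 2 of 3 in Htt+/+ Hdac2 KO, 1 of 3 in HttQ111/+ Hdac2 WT and 4 of 5 in HttQ111/+ Hdac2 KO. The surrogate variables together fitted 51.8% of the variance of the log2 ratio. By genotype group the ratio was over 1 in 5 of 8 Htt+/+ Hdac2 WT, 1 of 7 HttQ111/+ Hdac2 WT, 2 of 9 Htt+/+ Hdac2 KO and 4 of 11 HttQ111/+ Hdac2 KO libraries, so the split was unequal in the 4-group comparisons, those of Pcdhb6, Pcdhb7 and Pcdhb9 included. Its part in these comparisons and in those among V mice was not tested. The counts do not tell which strain's allele a read came from, so whether the libraries differ in the alleles they carry there was not tested either.

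**Figure D3:**
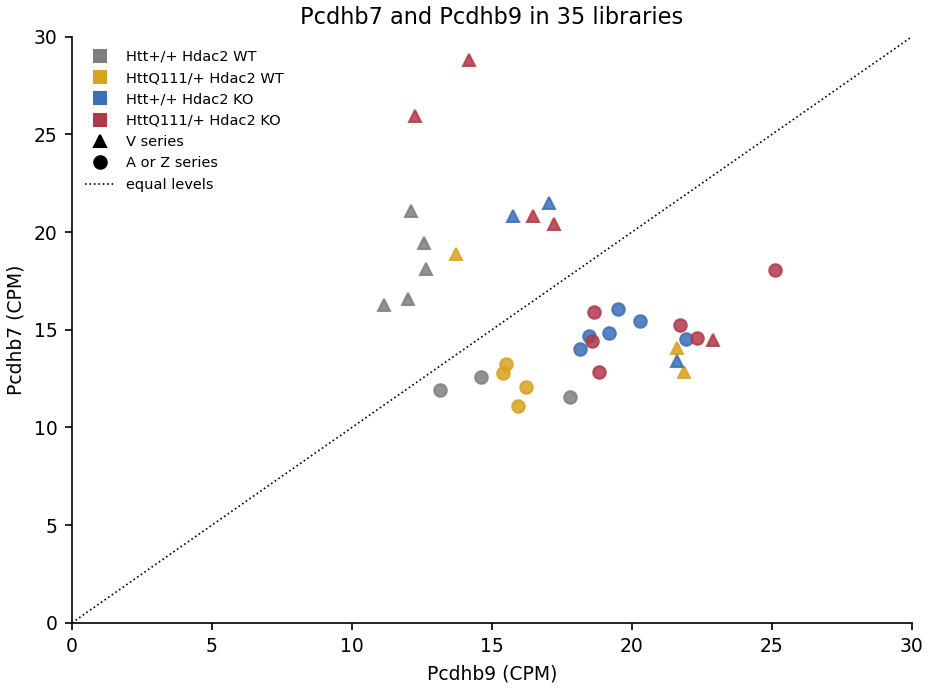
Pcdhb7 against Pcdhb9 in CPM for 35 libraries, coloured by genotype group, with triangles for V mice and circles for A or Z mice and a dotted line of equal levels. 12 V mice lie above the line, and the remaining 4 V mice and all 19 A and Z mice lie below it.

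Repeat length was compared within ID series, because the long repeats were all in V mice. Long-repeat carriers had 7 beta genes higher than V controls, averaged over Hdac2 genotype, against 2.09% of all genes. The median log2 fold change of the 22 beta genes was 0.17. Of 12 protocadherins outside the clusters, 3 were higher and 0 lower in the same comparison, with a median of 0.14. The rise was thus not confined to the clustered genes. Short-repeat carriers against A or Z controls gave 0 of 22 in edgeR and DESeq2, and 0 with an unadjusted p under 0.05, against 0.19% and 6.44% of all genes. The difference of the 2 effects was not called for any beta gene in edgeR (DESeq2 called 2), against 1.97%, and 8 had an unadjusted p under 0.05, against 13.5%.

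The genes higher in long-repeat carriers were Pcdhb13, Pcdhb22, Pcdhb15, Pcdhb4, Pcdhb16, Pcdhb12 and Pcdhb19. Pcdhb13 rose by 0.45 ± 0.11 on the log2 scale (SE, adjusted p = 0.00907) and Pcdhb22 by 0.30 ± 0.08 (adjusted p = 0.0165). Pcdhb15 rose by 0.38 ± 0.10 and Pcdhb4 by 0.41 ± 0.11 (adjusted p = 0.0218 and 0.0221). The count was 3 without Htt+/+ Hdac2 WT replicate 8 or Htt+/+ Hdac2 KO replicate 4, and 4 without Htt+/+ Hdac2 WT replicate 4, HttQ111/+ Hdac2 WT replicate 3 or HttQ111/+ Hdac2 KO replicate 5.

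The carriers were also split by Hdac2 genotype, a comparison made after the values were seen. The summed beta level was 277.1, 286.1 and 296.2 CPM in the 3 long-repeat Hdac2 WT mice, and 224.3 to 255.2 CPM with a median of 233.8 in the 5 V controls with Hdac2 WT. The 2 sets did not overlap. The 4 short-repeat Hdac2 WT mice ran from 213.0 to 237.0 CPM, and the 3 A or Z controls from 197.1 to 249.7 CPM, so these overlapped. With Hdac2 KO, long-repeat carriers ran from 275.4 to 343.0 CPM and V controls from 281.2 to 303.8 CPM, also overlapping.

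**Figure D4:**
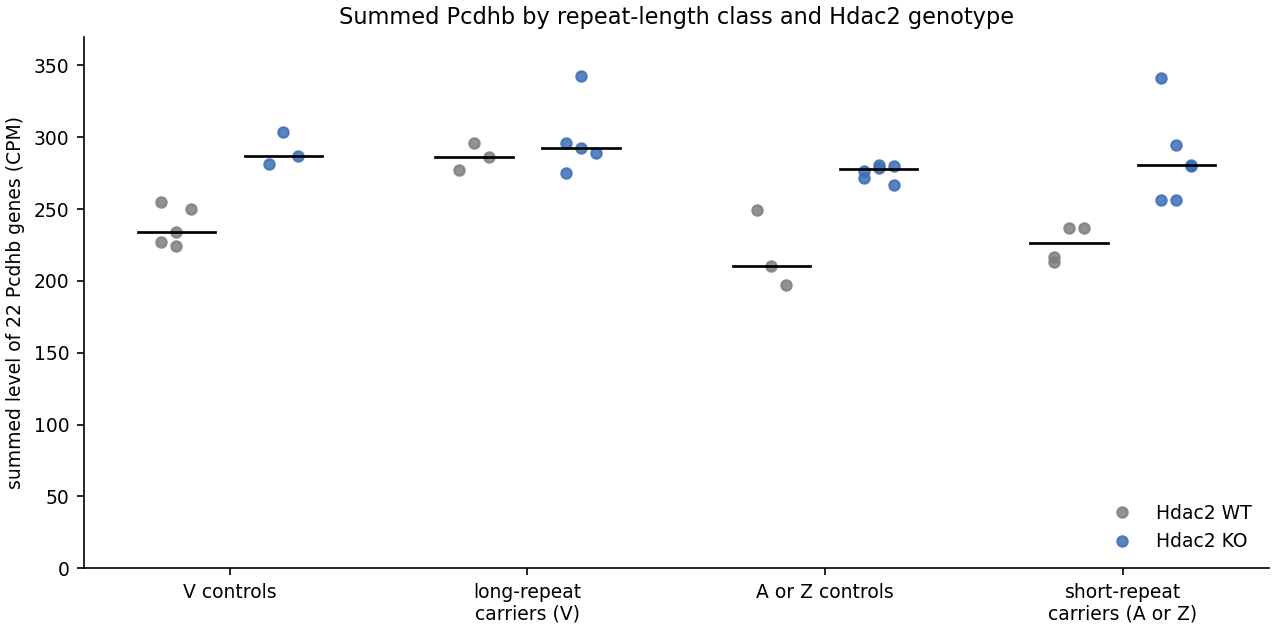
Summed CPM of the 22 beta genes (vertical axis, from 0) in each library by repeat-length class and Hdac2 genotype, with the median as a bar. The 3 long-repeat Hdac2 WT mice, at 277.1 to 296.2 CPM, lie above the 5 V controls with Hdac2 WT and among the Hdac2 KO mice.

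Pcdhb16 was 23.3, 23.6 and 25.0 CPM in the 3 long-repeat Hdac2 WT mice and 16.0, 16.2, 16.5, 16.6 and 17.7 CPM in the 5 V controls. Every carrier was above every control, and the log2 fold change was 0.50 ± 0.09 (SE, adjusted p = 0.000923). Pcdhb13 was 14.5, 14.5 and 14.6 CPM against 8.81, 9.15, 10.2, 10.4 and 10.9 CPM, with a log2 fold change of 0.64 ± 0.15 (adjusted p = 0.0099). The carrier with the high Pcdhb7 to Pcdhb9 ratio, HttQ111/+ Hdac2 WT replicate 4, was the lowest of the 3 carriers in both genes. For Pcdhb13 the 3 levels were nearly equal, so nothing is drawn from their order.

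Pcdhb9 differed: it was 13.7 CPM in that carrier and 21.6 and 21.9 CPM in the other two, against 11.1 to 12.7 CPM in the V controls. In all, 7 of 22 beta genes were higher in long-repeat Hdac2 WT mice than in V controls with Hdac2 WT, against 1.99% of all genes, and 1 of 22, Pcdhb4 (0.69 ± 0.14 on the log2 scale, adjusted p = 0.00715), with Hdac2 KO, against 0.271%. The first count was 1 without HttQ111/+ Hdac2 WT replicate 3 and 3 without Htt+/+ Hdac2 WT replicate 8. A test of the difference between the 2 Hdac2 genotypes called 0 of 22 in edgeR, against 0.0115% of all genes, with 11 at an unadjusted p under 0.05, against 9.29%. The smallest adjusted p was 0.0518 for Pcdhb9, followed by 0.0539 for Pcdhb16, whose repeat effect was lower by 0.57 ± 0.11 on the log2 scale in KO (interaction -0.57).

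Seen from the other side, 7 of 22 beta genes were higher with Hdac2 KO in V controls (3.19% of all genes). There were 13 in A or Z controls (3.11%), 12 in short-repeat carriers (2.7%) and 8 in long-repeat carriers (1.8%). These contrasts share libraries with the repeat-length comparisons. In long-repeat carriers the called genes were Pcdhb2 to Pcdhb7, Pcdhb11 and Pcdhb20, whereas Pcdhb16 had 0.12 ± 0.10 and Pcdhb22 0.08 ± 0.12 on the log2 scale. That count was 3 without HttQ111/+ Hdac2 WT replicate 3 or 5, and 5 without HttQ111/+ Hdac2 KO replicate 6 or 8. With sex in place of the surrogate variables it was also 3. The long-repeat KO carriers were all male, whereas HttQ111/+ Hdac2 WT replicate 5 was female and the other long-repeat WT carriers were male. In V controls the count was 4 without Htt+/+ Hdac2 KO replicate 2, and DESeq2 called 13.

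Among Htt+/+ mice, V against A or Z mice gave 0 of 22 calls in edgeR, against 0.179% of all genes, and 1 at an unadjusted p under 0.05, against 11.7%. Within the classes, the slope on repeat length called 0 of 22 in edgeR among long-repeat carriers (0.0118% of all genes) and 0 of 22 among short-repeat carriers (0%). At an unadjusted p under 0.05 there were 0 and 1, against 5.78% and 6.59%. Over all 18 carriers, with Hdac2 genotype and sex as covariates, 9 beta genes rose with repeat length, where 1002 of 17169 genes were called; there, length and ID series cannot be told apart.

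Cell type markers were set beside these results. MSN markers were lower in long-repeat carriers, with 11 of 13 called against 4.09% of all genes, and a median log2 fold change of -0.33. With Hdac2 KO in Htt+/+ mice 2 of 13 were higher and 2 lower, and the summed MSN level ran from 8959 to 10211 CPM in WT and from 8424 to 10018 CPM in KO. In HttQ111/+ mice 2 of 13 were higher and 0 lower with Hdac2 KO. There the summed MSN level ran from 6598 to 8949 CPM (median 7166) in WT and from 7527 to 9291 CPM (median 8251) in KO. In both backgrounds Ppp1r1b was among the higher MSN markers, and it is also in the summed level. The D9-Cre transgene of the KO mice holds some Ppp1r1b exons, and whether Ppp1r1b reads came from it was not tested. The part of MSN state in the beta levels was not tested. No oligodendrocyte, microglial or endothelial and mural marker was called in either Hdac2 contrast, and 1 of 7 astrocyte markers was lower in each. Of 10 interneuron markers 1 was lower in Htt+/+. No cortical marker was called; the summed cortical level ran from 74.9 to 151.3 CPM in Htt+/+ Hdac2 WT, 66.9 to 659.6 CPM in HttQ111/+ Hdac2 WT, 70.6 to 296.4 CPM in Htt+/+ Hdac2 KO and 71.8 to 120.5 CPM in HttQ111/+ Hdac2 KO. Without the 3 libraries over 100 CPM of Slc17a7 18 beta genes were higher in Htt+/+ and 12 in HttQ111/+. Of the choroid plexus markers tested, 1 was higher in each contrast and 1 lower in Htt+/+.

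Lists of related genes were read against all genes tested, of which 9.06% rose and 8.79% fell with Hdac2 KO in Htt+/+, and 7.68% rose and 8.86% fell in HttQ111/+. Of 12 protocadherins outside the clusters, Pcdh20 rose (0.46 ± 0.13 on the log2 scale, adjusted p = 0.0118) and Pcdh1 fell (by 0.14, SE 0.05, adjusted p = 0.046) with Hdac2 KO in Htt+/+, and Pcdh9 fell in HttQ111/+ (by 0.13, SE 0.04, adjusted p = 0.0318). Among genes beside or between the clusters, 2 of 21 were lower in Htt+/+, and 1 of 20 was higher and 2 lower in HttQ111/+, which is near the share of all genes. The largest was Gnpda1, an enzyme of hexosamine breakdown, which fell by 0.42 (SE 0.06, adjusted p = 1.26e-05) in HttQ111/+. Hdac3, which lies beside the gamma cluster, had log2 fold changes of -0.00 and 0.02 (adjusted p = 0.997 and 0.78).

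Of 35 genes for the architecture and silencing of the clusters, 2 rose and 3 fell with Hdac2 KO in Htt+/+, and 3 rose and 5 fell in HttQ111/+, to be read beside those shares of all genes, and nothing particular to the list is drawn from the members named here. Ctcf, the factor that loops cluster promoters to their enhancers, fell by 0.10 and 0.09 (SE 0.03 in both, adjusted p = 0.0219 and 0.0191). The DNA methyltransferase gene Dnmt3a fell by 0.18 and 0.19 (SE 0.05 and 0.04, adjusted p = 0.00738 and 0.00165). Ehmt2, a histone H3 lysine methyltransferase gene, rose by 0.16 and 0.10 (SE 0.03 in both, adjusted p = 0.000993 and 0.0195).

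Of 30 partners and effectors of the clustered protocadherins, 7 fell in each background, against 8.79% and 8.86% of all genes. Ptk2b, which encodes the kinase Pyk2, fell by 0.37 and 0.35 (SE 0.03 in both, adjusted p = 1.32e-09 and 9.59e-10). Cyfip2, part of the WAVE actin-regulating complex that binds protocadherin tails, fell by 0.43 and 0.34 (SE 0.05 and 0.04, adjusted p = 1.11e-07 and 1.27e-06).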

How the data were processed

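Per the study's methods, stranded mRNA libraries were sequenced, aligned to GRCm38 with GSNAP, and uniquely aligned reads were counted per Ensembl gene interval. The deposited values are raw read counts made by the authors; whether counting used strand is not given in the sources used here. Spike-ins, intervals up to 250 bases and 2 mitochondrial rRNA genes were removed, which left 32863 of 39109 rows. Genes entered a test if all libraries of 1 or more of the compared groups had a minimum of 6 counts. edgeR 4.0.16 (R 4.3.3) with TMM scaling and 9 surrogate variables (8 with 8 genotype-by-series cells; sva 3.50.0) was fitted over all genes, and the threshold was an adjusted p of 0.05. DESeq2 1.42.0 was an alternative. The 4-group fit was tested on simulated data that held no date, series or sex differences. That test cannot show how the fit handles such differences. The largest library had 76939791 reads and Pcdhb1 as few as 6, so precision for that gene is low. Separate mice were the replicates.

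The table holds 1 row for the alpha and 1 for the gamma cluster, so the planned counts per cluster segment could not be made. Named genes were the 6 called beta genes with the smallest adjusted p per comparison, the highest and lowest by level, and up to 4 called genes per list. The members and lists were chosen with earlier results of these data known. The Hdac2 and repeat-length comparisons within ID series by genotype were added after the values were seen, and genes singled out there were chosen by those values.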

Additional observations from a re-analysis of the deposited data

Results flagged for a closer look

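Of 72 sets of values (24 rows in the 3 groups of 7 to 9 libraries), 5 held 1 library far from the rest, where chance alone gives about 1 in 20. Pcdhb5 was 10.8 CPM in Htt+/+ Hdac2 KO replicate 3, against 7.55 to 8.68 CPM in the others, and Pcdhb19 was 31.0 CPM in the same library, against 22.6 to 26.5 CPM. Pcdhb6 was 16.0 CPM in Htt+/+ Hdac2 WT replicate 7, against 7.29 to 11.3 CPM. Pcdhb7 was 18.9 CPM in HttQ111/+ Hdac2 WT replicate 4, against 11.1 to 14.1 CPM. Pcdhb22 was 6.13 CPM in Htt+/+ Hdac2 WT replicate 9, against 7.55 to 8.80 CPM. The first 4 values were high and came from V mice, and the fifth was low and came from a Z mouse.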

How the results depend on the processing

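In Htt+/+, the count of beta genes higher in Hdac2 KO was 17, and 12 to 18 under the alternatives other than extraction date, which gave 7. In HttQ111/+ it was 11, and fell to 6 with no covariates, 7 with sex and ID series, 5 with sex, 0 with extraction date, 6 with the replicate block and 7 in males only; the 1 lower gene became 0 under each of these and with only the 2 groups compared. Pcdhb14 reversed to 0.20 on the log2 scale with extraction date. For Q111 with Hdac2 WT, higher calls went from 0 to 6 with sex and ID series, 1 with extraction date and 1 with DESeq2. For long-repeat carriers, 7 became 4 with the replicate block, 4 with RLE and 4 with no filter, and lower calls went from 0 to 1 with the block. For KO in long-repeat carriers, 8 became 3 with sex and 0 with the block, with 1 lower in both. DESeq2 gave 13 for KO in V controls, 2 lower for long-repeat Hdac2 WT mice and 2 for long minus short, where continuous length gave 9. Leaving out 1 V library in turn gave 1 to 8 (long-repeat Hdac2 WT), 3 to 9 (KO in long-repeat carriers), 4 to 9 (KO in V controls) and 3 to 8 (long-repeat carriers), and lower calls of 0 to 1 for all but KO in V controls. The log2 difference of summed levels moved from 0.29 to 0.13 in Htt+/+ and from 0.05 to 0.16 for Q111 with Hdac2 KO when the median over members was used. Apart from the fit on continuous length, no share of all genes is given for these alternatives. Whether a change in count was particular to the beta genes cannot be read from them. The causes were not tested. Same-numbered libraries had a median correlation of deviations of 0.0327 over 45 pairs, with 26 at or under 0.1, so the numbers do not pair mice. The segment alternatives were not run, as the table has no segments. The sex fit of the 4 contrasts, males only and the fits without libraries were chosen after seeing the data.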
